A study of Homo sapiens with 6 samples.

Results

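The BCL2 family was examined as 10 named genes in MDA-MB-231 cells, a triple-negative breast cancer cell line, and in adriamycin-resistant cells derived from it. The members were taken by gene symbol from a list of anti-apoptotic genes (BCL2, BCL2L1, MCL1 and BCL2A1), effector genes (BAX and BAK1) and BH3-only genes (BCL2L11, BMF, PMAIP1 and BID), and all 10 were found among the 58735 genes of the count table. BBC3 was not in the list.

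RNA-seq was available for parent cells (genotype label WT, 3 libraries) and for ADRr cells (genotype label ADR resistant, 3 libraries). Both were described as breast cancer cells of one line grown in DMEM with FBS. Adriamycin (ADR), also called doxorubicin, is an anthracycline that poisons topoisomerase II and breaks DNA. According to the study's methods, ADRr cells had been selected stepwise in rising ADR and isolated as single clones by limiting dilution, so the resistant group stands for a selected clone and not for acute treatment with the drug. The dose, if any, in the medium at harvest is not given in the sources used here. The design text speaks of 3 time points that no sample label names, and no source says that the libraries of a group came from separate cultures, so the p-values measure only the spread between these libraries. In the text, replicates 1 to 3 are the sample numbers in the labels.

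The BCL2 family decides whether a stressed cell keeps its outer mitochondrial membrane intact. BAX and BAK1 are the effectors that form pores in that membrane and let cytochrome c out, anti-apoptotic members such as BCL2, BCL-xL (from BCL2L1) and MCL1 hold them in check, and BH3-only proteins bind and neutralise the anti-apoptotic members or activate the effectors directly. Much of this control acts on the proteins, through binding, cleavage and degradation, which RNA-seq does not measure.

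The total counts of the 6 libraries ranged from 15983985 to 18272314, so a gene with a count of 0 may still have a level of up to 3 counts, which is 0.164 to 0.188 CPM (read counts scaled to the size of the library). That limit covers counting error only. Genes listed as high in this line (VIM, CD44, MSN and AXL) had group means of 349 to 1679 CPM, and they too differed between the groups. In edgeR's quasi-likelihood test, the log2 fold changes were -0.56 for VIM (adjusted p = 4.4e-10) and -0.62 for AXL (adjusted p = 2.3e-11). They were 0.80 for CD44 (adjusted p = 2.2e-13) and 0.13 for MSN (adjusted p = 0.018). The oestrogen and progesterone receptor genes ESR1 and PGR had at most 1 count in any library. The epithelial genes, listed as low in this line, moved in opposite directions: EPCAM had 12.5 ± 2.78 CPM in parent and 26.9 ± 0.373 CPM in ADRr cells (log2 fold change 1.10, adjusted p = 3.2e-08), and CDH1 had 14.7 ± 1.56 and 7.04 ± 1.12 CPM (-1.07, adjusted p = 3.7e-07; SD, n = 3 each). Of 6 markers of blood and endothelial cells, TYROBP had no count in any library, PECAM1 had 4 to 13, CD53 had 0 in the parent libraries and 4, 1 and 3 in the ADRr libraries, and the 6 together summed to 0.455 to 0.601 CPM in the parent libraries and 0.50 to 1.04 CPM in the ADRr libraries. All 5 proliferation markers examined (MKI67, TOP2A, PCNA, MCM2 and CCNB1) were lower in ADRr cells, by log2 fold changes between -0.94 for CCNB1 and -2.19 for TOP2A, and their part in the results on the family was not tested.

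Among the members, 5 were called higher in ADRr cells (PMAIP1, BCL2L11, MCL1, BAK1 and BCL2) and 0 were called lower. The call required a 1.2-fold difference or more, up or down, together with an adjusted p no higher than 0.05 in edgeR's quasi-likelihood test, fitted on all 15242 genes that passed a filter on low counts with Benjamini-Hochberg adjustment over them. Of the 10 members 9 passed that filter, and BCL2A1 did not. Called genes made up 58.8% of all genes tested, 29.2% being higher and 29.6% lower, so a share of called members near 55.6% is no result about the family. The median log2 fold change of the 9 tested members was 0.31, against -0.01 over all genes tested. Their median absolute log2 fold change was 0.31, against 0.46 over all genes tested. In bulk RNA, fewer cells expressing a gene and less of its RNA per cell cannot be told apart. By library, 5 members had all 3 ADRr values above all 3 parent values and 1 member, BID, had all of them below, while BCL2L1, BAX and BMF overlapped. Over all genes tested, 69.2% did not overlap between the groups, 34.5% lying higher and 34.7% lower in ADRr cells.

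**Figure D1:**
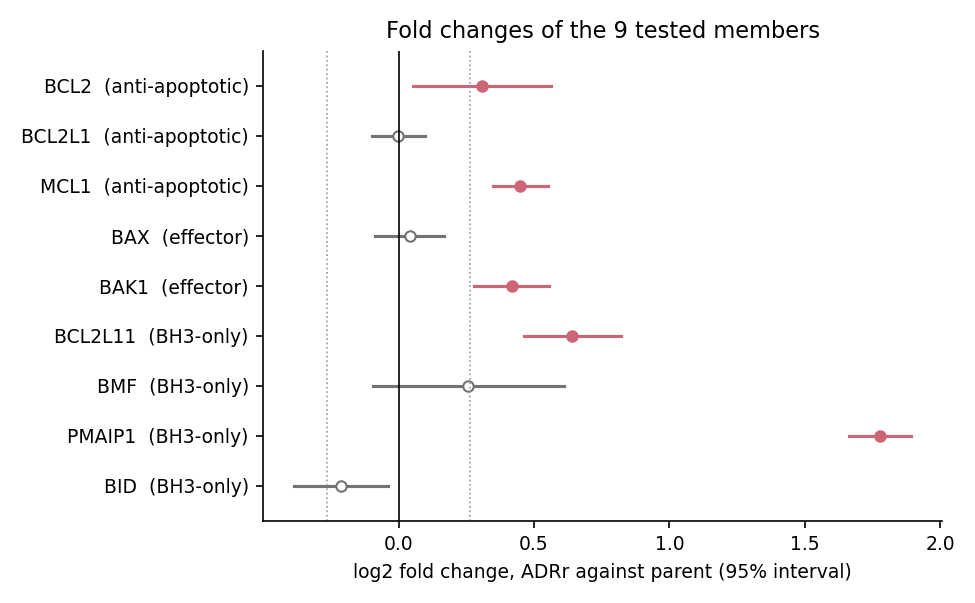
Log2 fold change of ADRr against parent cells for the 9 tested members, grouped by role; points are the edgeR estimates (filled where called), bars their 95% confidence intervals and dotted lines a fold change of 1.2. PMAIP1 lies far to the right at 1.78, the other called members lie between 0.31 and 0.64, and the intervals of BCL2L1, BAX and BMF cross 0.

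PMAIP1 rose most of all members. It encodes NOXA, a BH3-only protein that binds MCL1 and BCL2A1 and was first described as a target of p53. The gene (ENSG00000141682) lies on the plus strand at chr18:59899948-59904306 in GRCh38. Its counts in parent replicates 1 to 3 were 1536, 1616 and 1588, and in ADRr replicates 1 to 3 they were 5908, 5280 and 5964. Scaled to the libraries, these were 92.3, 102 and 90.3 CPM in parent cells and 328, 323 and 325 CPM in ADRr cells. Every ADRr library held more than 3 times the PMAIP1 level of any parent library, and the libraries within a group lay close together. The log2 fold change was 1.78 (SE 0.06, 95% confidence interval 1.66 to 1.89), a fold of 3.43, with an adjusted p of 1.3e-17 in edgeR's quasi-likelihood test. The absolute change exceeded that of 94.2% of all genes tested. PMAIP1 was called higher under all 18 alternative settings, with log2 fold changes from 1.74 to 1.83, and was the only member still called at an absolute log2 fold change of 1.2, a threshold that 13.7% of all genes tested passed.

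BCL2L11 was the other BH3-only gene among the members that was called higher. It encodes BIM, which binds all of the main anti-apoptotic proteins and can also activate BAX and BAK directly. The gene (ENSG00000153094) lies at chr2:111119378-111168447 on the plus strand. It was measured at 21.5, 19.5 and 19.5 CPM in parent replicates 1 to 3 and at 30.2, 31.7 and 32.5 CPM in ADRr replicates 1 to 3. The groups did not overlap, and the gap between them was several times the spread within either. The log2 fold change was 0.64 (SE 0.09, 95% confidence interval 0.46 to 0.82; adjusted p = 9.0e-07). A long non-coding RNA on the opposite strand, MIR4435-2HG, covers 10.9% of the BCL2L11 exons and had 1020 to 1427 counts per library. The strand setting of the counting is not given in the sources used here, so reads in the shared stretch cannot be assigned to either gene.

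BID and BMF, the remaining BH3-only genes among the members, did not meet both conditions of the call. BID (ENSG00000015475, chr22:17734138-17774770, minus strand) encodes the protein that caspase-8 cuts to link death receptors to mitochondria. Its levels were 34.1, 31.5 and 37.5 CPM in parent cells and 29.6, 30.0 and 29.4 CPM in ADRr cells, replicates 1 to 3 of each. All ADRr values were below all parent values, and the parent libraries were the more scattered. The log2 fold change was -0.21 (SE 0.08, 95% confidence interval -0.39 to -0.04) with an adjusted p of 0.029, which met the condition on p, as did 66.0% of all genes tested, but missed the fold change of 1.2. Without parent replicate 2, the lowest parent library for this gene, the log2 fold change was -0.28 with an adjusted p of 0.0043, and BID was then called lower. BMF (ENSG00000104081, chr15:40087890-40108892, minus strand), whose protein is held on the cytoskeleton through the dynein light chain DYNLL2, was a low gene. It had 4.93, 5.62 and 4.89 CPM in parent cells and 6.0, 5.32 and 7.09 CPM in ADRr cells. The groups overlapped, and the log2 fold change of 0.26 had a 95% confidence interval of -0.09 to 0.61 (adjusted p = 0.19).

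MCL1 was the anti-apoptotic gene with the clearest increase. It encodes a short-lived protein that restrains BAK and BIM and is the main partner of NOXA. The gene (ENSG00000143384) lies at chr1:150574551-150579738 on the minus strand. Parent replicates 1 to 3 had 337, 354 and 327 CPM, and ADRr replicates 1 to 3 had 476, 472 and 443 CPM. The lowest ADRr library was well above the highest parent library. The log2 fold change was 0.45 (SE 0.05, 95% confidence interval 0.35 to 0.55; adjusted p = 4.0e-08).

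BCL2L1, which encodes BCL-xL, was the highest member in parent cells when scaled to gene length. It differed by less than 1.2-fold between the groups. In CPM, parent cells had means of 341 for BCL2L1 and 339 for MCL1. BCL2L1 (ENSG00000171552) lies at chr20:31664452-31723989 on the minus strand. It was measured at 338, 334 and 349 CPM in parent cells and at 339, 343 and 339 CPM in ADRr cells. The ADRr values fell within the parent range, and the 95% confidence interval of the log2 fold change, -0.10 to 0.10, holds no change of 1.2-fold in either direction (adjusted p = 0.98). ABALON, an antisense RNA, covers 43.0% of the BCL2L1 exons. It had 77, 86 and 83 counts in parent libraries and 30, 34 and 25 in ADRr libraries, against 5290 to 6214 counts for BCL2L1. As for BCL2L11, the strand setting is not given, so reads in the shared stretch cannot be assigned to either gene. The low ABALON counts do not show how many such reads were left out of both genes. The gene has 9 annotated transcripts, and counts per gene do not separate the long form of the protein from the short, pro-apoptotic form.

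BCL2, the founding member of the family, was a low gene with a small difference. It lies at chr18:63123346-63320128 on the minus strand (ENSG00000171791). It had 171, 133 and 181 counts in parent libraries and 209, 193 and 229 in ADRr libraries, or 10.3, 8.40 and 10.3 CPM against 11.6, 11.8 and 12.5 CPM. The groups did not overlap, and parent replicate 2 was the lowest of the 6 libraries. The log2 fold change was 0.31 (SE 0.12, 95% confidence interval 0.05 to 0.56; adjusted p = 0.033), and the call was lost under 10 of 18 alternative settings, over which the adjusted p ranged from 0.021 to 0.27. It was lost with DESeq2 (adjusted p = 0.11), with edgeR after leaving out parent replicate 2 (log2 fold change 0.21, adjusted p = 0.15), after leaving out ADRr replicate 2 (0.32, adjusted p = 0.058) and after leaving out ADRr replicate 3 (0.27, adjusted p = 0.11).

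BCL2A1, which encodes the anti-apoptotic protein BFL-1, was near the detection limit. The gene (ENSG00000140379, chr15:79960889-79971446, minus strand) had 1 count in parent replicate 1, 5 counts in ADRr replicate 2 and 0 in the other libraries. It was not tested, and no fold is given.

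The effector genes differed from each other. BAK1 (ENSG00000030110) lies at chr6:33572547-33580293 on the minus strand, and its protein resides in the outer mitochondrial membrane. It was measured at 79.5, 73.1 and 83.4 CPM in parent cells and at 99.8, 115 and 101 CPM in ADRr cells. The groups did not overlap, and ADRr replicate 2 was the highest library. The log2 fold change was 0.42 (SE 0.07, 95% confidence interval 0.28 to 0.56; adjusted p = 1.1e-05). BAX (ENSG00000087088, chr19:48954815-48961798, plus strand), whose protein is mostly cytosolic until activated, had 110, 105 and 119 CPM in parent cells and 111, 122 and 112 CPM in ADRr cells. The groups overlapped, and the log2 fold change of 0.04 had a 95% confidence interval of -0.09 to 0.17 (adjusted p = 0.58). The FPKM ratio of BAK1 to BAX was 0.847, 0.813 and 0.818 in parent replicates 1 to 3 and 1.06, 1.11 and 1.05 in ADRr replicates 1 to 3. This ratio was chosen after its values were seen and is given without a test.

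FPKM values, which are scaled to gene length, were used to compare levels between members. That length holds all annotated exons of a gene, for example 6658 bases and 25 transcripts for BCL2L11 against 2235 bases and 3 transcripts for PMAIP1. The level of a gene with many alternative exons may be understated, as may that of BCL2L1 through its overlap with ABALON. The order, shares and sums of members carry this limit. In parent cells the order of mean FPKM was BCL2L1 (101), MCL1 (76.0), BAX (42.1), PMAIP1 (41.6), BAK1 (34.8), BID (7.56), BCL2L11 (2.96), BMF (0.925), BCL2 (0.804) and BCL2A1 (0.0181). Of the neighbours in this order, BAX and PMAIP1 overlapped across libraries and the others did not. In ADRr cells PMAIP1 came first at 143 FPKM, ahead of MCL1 (104) and BCL2L1 (101), which overlapped. BAK1 (46.7) and BAX (43.5) followed and overlapped, and then came BID (6.55) and BCL2L11 (4.64). BMF (1.11) and BCL2 (0.999) overlapped, and BCL2A1 (0.0916) was last. In both groups the summed RNA of the family came almost wholly from BCL2L1, MCL1, BAX, BAK1 and PMAIP1, and BCL2 itself contributed 0.261% ± 0.0288 (SD, n = 3) in parent cells and 0.221% ± 0.0119 (SD, n = 3) in ADRr cells.

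The composition of the family's RNA shifted towards PMAIP1. The summed FPKM of the 10 members was 307 ± 2.36 (SD, n = 3) in parent cells and 452 ± 7.09 (SD, n = 3) in ADRr cells, a difference of 144. PMAIP1 accounted for 70.4% of that difference, MCL1 for 19.5% and BAK1 for 8.23%. The share of PMAIP1 in the sum was 13.5% ± 0.967 (SD, n = 3) in parent cells and 31.7% ± 0.759 (SD, n = 3) in ADRr cells. The share of BCL2L1 went the other way, from 32.7% ± 0.475 to 22.3% ± 0.280 (SD, n = 3 each), while its own mean was 101 FPKM in both groups and the sum was larger. By role, the listed anti-apoptotic genes summed to 177 ± 0.915 FPKM in parent cells and 206 ± 3.99 in ADRr cells, a fold of 1.16. The listed effector genes summed to 77.0 ± 4.86 and 90.2 ± 5.85 FPKM, a fold of 1.17. The listed BH3-only genes summed to 53.0 ± 2.16 and 155 ± 1.49 FPKM, a fold of 2.93 (SD, n = 3 for each of these sums). Without PMAIP1, the BH3-only sum was 11.4 ± 0.602 FPKM in parent cells and 12.3 ± 0.273 in ADRr cells, so nearly all of the difference in this sum came from PMAIP1. Relatives outside the 10 members are not in these sums. BAD, a BH3-only relative, fell from 36.1 FPKM in parent to 27.3 in ADRr cells and was called lower. BIK, also BH3-only, rose from 5.66 to 7.81 FPKM and was called higher. BCL2L2, an anti-apoptotic relative, rose from 8.53 to 10.9 FPKM and was called higher. BOK, an effector relative, fell from 23.0 to 13.5 FPKM and was called lower. GPR137, on the opposite strand, covers 23.7% of the BAD exons.

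Ratios within a library do not depend on how libraries are scaled to each other. The ratio of PMAIP1 to MCL1, an inhibitor and its main target, was 0.536, 0.564 and 0.539 in parent replicates 1 to 3 and 1.35, 1.34 and 1.44 in ADRr replicates 1 to 3. MCL1 RNA thus exceeded PMAIP1 RNA per length in every parent library, and the reverse held in every ADRr library. The ratio was 2.51-fold higher in ADRr cells, with a two-sided exact permutation p of 0.1, the smallest that 3 libraries against 3 allow, and of 0.2 after Benjamini-Hochberg adjustment over the 4 ratios tested. The ratio of BAX to BCL2, often used as an index of readiness for apoptosis, was 48.6, 56.9 and 52.7 in parent cells and 43.3, 46.9 and 40.7 in ADRr cells. The groups did not overlap, and the log2 difference of -0.27 had the same exact permutation p of 0.1, adjusted 0.2. BAX to BCL2L1 differed by 0.04 on the log2 scale (exact permutation p = 0.4, adjusted 0.53), and BAK1 to MCL1 by -0.03 (exact permutation p = 0.8, adjusted 0.8). The groups overlapped for both of these ratios. MCL1 to BCL2L1, a ratio added after the values were seen and not tested, was 0.755, 0.803 and 0.711 in parent cells and 1.06, 1.04 and 0.990 in ADRr cells.

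Promoter sequences are shown for the members with the largest changes in the BH3-only and effector roles, PMAIP1, BCL2L11 and BAK1, and for BAX, the effector that was not called. They are the 250 bases before a RefSeq transcript start in GRCh38.p14, written 5′ to 3′ on the gene's strand, and RefSeq entries were matched for 9 of the 10 members. MCL1 was not matched. A single window is shown per gene, though PMAIP1, BCL2L11, BAK1 and BAX have 3, 7, 2 and 6 annotated transcript starts. By position, the BCL2L11 window lies inside the counted gene, and those of PMAIP1, BAK1 and BAX reach into theirs. The PMAIP1 window is chr18:59899746-59899995 (plus strand), that of BCL2L11 is chr2:111120664-111120913 (plus strand), that of BAK1 is chr6:33580277-33580526 (minus strand) and that of BAX is chr19:48954625-48954874 (plus strand). Capitals mark the letters ACGTCA (the core of the cAMP response element), CACGTG (an E-box) and GGGCGG (a GC box), on either strand.
PMAIP1: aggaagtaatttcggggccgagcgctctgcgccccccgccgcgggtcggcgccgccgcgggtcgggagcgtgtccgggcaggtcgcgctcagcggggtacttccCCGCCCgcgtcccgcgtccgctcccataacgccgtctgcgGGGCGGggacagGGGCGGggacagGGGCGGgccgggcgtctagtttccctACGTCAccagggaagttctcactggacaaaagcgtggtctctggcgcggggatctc
BCL2L11: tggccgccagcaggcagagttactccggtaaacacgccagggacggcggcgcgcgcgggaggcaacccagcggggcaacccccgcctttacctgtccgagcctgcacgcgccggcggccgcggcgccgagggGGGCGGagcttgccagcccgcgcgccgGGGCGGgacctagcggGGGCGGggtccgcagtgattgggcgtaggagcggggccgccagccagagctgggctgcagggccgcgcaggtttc
BAK1: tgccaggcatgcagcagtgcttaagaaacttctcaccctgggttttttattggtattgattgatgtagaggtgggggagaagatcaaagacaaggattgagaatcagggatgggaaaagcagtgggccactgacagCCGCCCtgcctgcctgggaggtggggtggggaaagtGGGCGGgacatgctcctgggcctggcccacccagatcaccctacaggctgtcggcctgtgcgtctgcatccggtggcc
BAX: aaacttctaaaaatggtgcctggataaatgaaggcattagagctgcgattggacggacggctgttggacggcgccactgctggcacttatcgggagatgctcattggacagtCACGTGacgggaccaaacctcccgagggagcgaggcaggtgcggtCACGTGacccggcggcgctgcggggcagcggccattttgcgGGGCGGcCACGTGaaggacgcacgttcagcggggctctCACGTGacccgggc

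The PMAIP1 window held 4 GC boxes and 1 ACGTCA core, which begins at position -56 from the start and is the kind of element read by CREB and ATF factors. The whole palindrome TGACGTCA, of which the core is a part, was not in the window. The core was present in 7.09% of 34943 RefSeq promoter windows of the same length, and the palindrome in 1.63%. BCL2L11 held 3 GC boxes, BAK1 held 2, and 42.5% of all windows held at least 1. BAX held 1 GC box and 4 E-boxes, a motif found in 6.32% of all windows. An E-box was also in some of the overlapping windows of BID, and GC boxes were in windows of BID and BMF. The windows of BCL2 and BCL2L1 held none of the motifs searched. TGANTCA (AP-1) was in no member's window and in 6.59% of all windows, TTCNNNGAA (STAT) was in that of BCL2A1 and in 6.56% of all windows, and the NF-kB motif was in 1 of the windows of BMF and in 9.95% of all windows. Such matches describe the letters of these windows and do not show that a factor bound there.

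PMAIP1 and BCL2 lie on the same chromosome arm, 3.22 Mb apart, in a stretch where most tested genes were higher in ADRr cells. Of the 50 tested genes nearest to PMAIP1, which reach 10.4 Mb from it, 37 were called higher and 7 lower, and their median log2 fold change was 0.73. PMAIP1 itself lay above 41 of the 50 and 1.04 above their median. For BCL2, 36 of the nearest 50 were called higher and 6 lower, and the median was 0.78. BCL2 lay above only 13 of its 50 neighbours and 0.47 below their median. The neighbour sets shared 41 genes. Over the whole of chromosome 18, 118 of 209 tested genes (56.5%) were called higher and 32 lower, with a median of 0.53, against -0.01 over all tested genes. The part of this regional shift in the values of PMAIP1 and BCL2 was not tested.

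**Figure D2:**
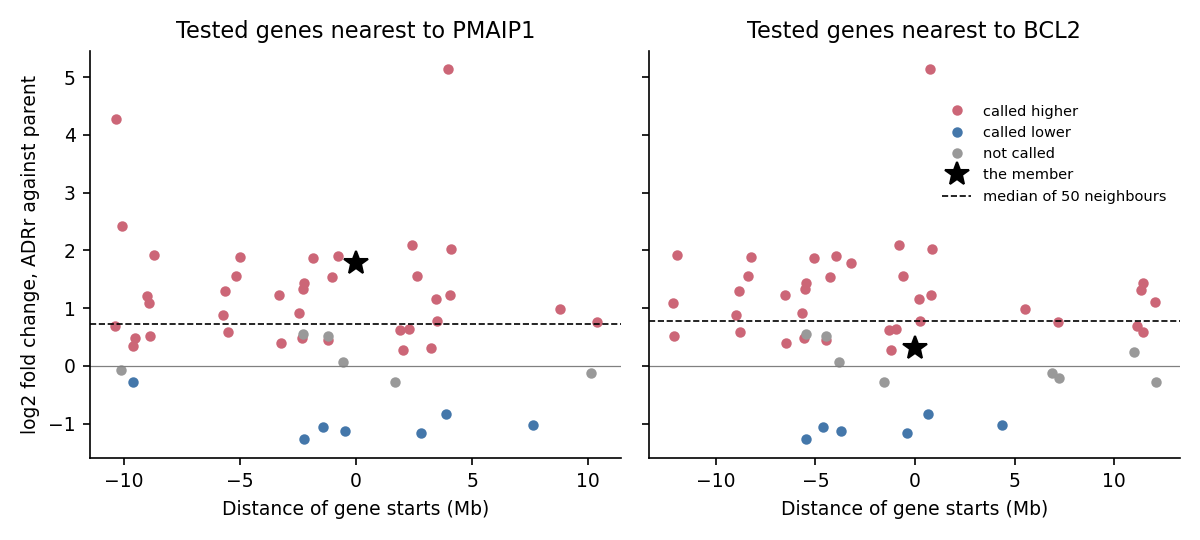
Log2 fold change of the 50 tested genes nearest to PMAIP1 (left) and to BCL2 (right) against the distance between gene starts in Mb, coloured by call (red higher, blue lower, grey not called), with the member as a star and the neighbours' median as a dashed line. PMAIP1 stands above its neighbours' median of 0.73, and BCL2 stands below its own of 0.78.

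The medians around the other members lay below those around PMAIP1 and BCL2. Of the 50 tested genes nearest to BCL2L11, 21 were still called higher and 8 lower, where 29.2% and 29.6% of all genes tested were. The median log2 fold change of the 50 nearest tested genes was -0.08 around MCL1, -0.35 around BAK1 and 0.24 around BCL2L11, all of which were themselves called higher. MCL1, BAK1 and BCL2L11 thus lay 0.53, 0.77 and 0.40 above their neighbours' medians. Around BCL2L1 the median was -0.01, around BAX -0.35, around BMF -0.22 and around BID -0.04. The neighbours of BCL2A1, which was not tested itself, had a median of -0.49.

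Other genes of the pathway were examined in lists set by function, and the directions were mixed. Of 10 further BCL2 relatives 6 were tested, and 3 were called higher and 3 lower, with a median log2 fold change of -0.03. BCL2L13, a mitochondrial relative that acts as a mitophagy receptor, rose by 0.85 on the log2 scale (SE 0.07, adjusted p = 1.2e-10), from 48.2 ± 1.39 to 86.7 ± 4.94 CPM (SD, n = 3 each). BIK, a BH3-only gene, was called higher with 0.46 (SE 0.16, adjusted p = 0.013), but the call was lost with DESeq2 (adjusted p = 0.057), without parent replicate 1 (0.40, adjusted p = 0.052) and without ADRr replicate 3 (0.39, adjusted p = 0.066). BOK, an effector-like relative of BAX and BAK1, fell by 0.78 (SE 0.08, adjusted p = 3.2e-08), from 63.8 ± 7.06 to 37.1 ± 3.46 CPM (SD, n = 3 each). BCL2L12, an atypical member, fell by 1.08 (SE 0.09, adjusted p = 2.4e-10), and 33.1% of its exons overlap IRF3 on the opposite strand, which had 1103 to 1597 counts per library. BCL2L10, HRK and BCL2L14 had at most 5 counts in any library, and BCL2L15 had 4 to 20.

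Downstream of the mitochondrial pore, all 10 listed genes were tested, and 3 were called higher and 5 lower, with a median of -0.34. APAF1, the scaffold of the apoptosome that cytochrome c assembles, fell by 0.78 (SE 0.08, adjusted p = 1.9e-08), from 43.3 ± 3.09 to 25.2 ± 1.35 CPM (SD, n = 3 each). HTRA2, a protease released from mitochondria, rose by 0.92 (SE 0.11, adjusted p = 8.7e-08). On the opposite strand, AUP1 covers 16.1% of the HTRA2 exons and LOXL3 covers 20.8%. Counts of AUP1 were 1179 to 1452 in parent and 2055 to 2299 in ADRr libraries, and those of LOXL3 were 45 to 64 and 62 to 90. Of the outer membrane channels, VDAC1 and VDAC3 were called lower and VDAC2 was called higher. VDAC3 fell by 0.33 (SE 0.06, adjusted p = 5.8e-05). VDAC1 fell by 0.65 (SE 0.05, adjusted p = 1.1e-10), from 379 ± 10.9 to 242 ± 9.83 CPM, whereas VDAC2, the channel that binds BAK and BAX, rose by 0.52 (SE 0.05, adjusted p = 1.4e-08), from 149 ± 6.07 to 213 ± 7.20 CPM (SD, n = 3 each).

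Of 12 tested regulators of the family, 6 were called higher and 3 lower, with a median of 0.09. FOXO1 and FOXO3 are transcription factors known to activate BCL2L11. FOXO1 rose by 1.11 (SE 0.11, adjusted p = 1.1e-08), from 10.6 ± 0.301 to 23.0 ± 3.18 CPM, and FOXO3 rose by 1.00 (SE 0.06, adjusted p = 2.3e-12), from 48.4 ± 1.88 to 97.1 ± 1.82 CPM (SD, n = 3 each). For each of them, all ADRr libraries lay above all parent libraries. BAG1, a co-chaperone that binds BCL2, fell by 1.37 (SE 0.08, adjusted p = 6.3e-13), from 54.5 ± 2.57 to 21.1 ± 0.884 CPM (SD, n = 3 each). FBXW7, a subunit of a ubiquitin ligase that targets MCL1 for degradation, fell by 0.35 (SE 0.09, adjusted p = 0.0017), from 23.8 ± 0.723 to 18.7 ± 0.481 CPM (SD, n = 3 each), and its call was lost with edgeR's glmTreat against a fold change of 1.2 (adjusted p = 0.12) and with limma on log2(FPKM + 1), with a filter (-0.22, adjusted p = 0.019, under the fold threshold) and without one (-0.22, adjusted p = 0.059). FOXO1, FOXO3, BAG1 and FBXW7 were the ones with the largest changes in each direction among the called regulators. HUWE1, also a ubiquitin ligase of MCL1, was called higher with 0.35 (SE 0.04, adjusted p = 3.7e-07). USP9X, a deubiquitinase of MCL1, had a log2 fold change of -0.17 (SE 0.05, adjusted p = 0.0049), which missed the fold change of 1.2.

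**Figure D3:**
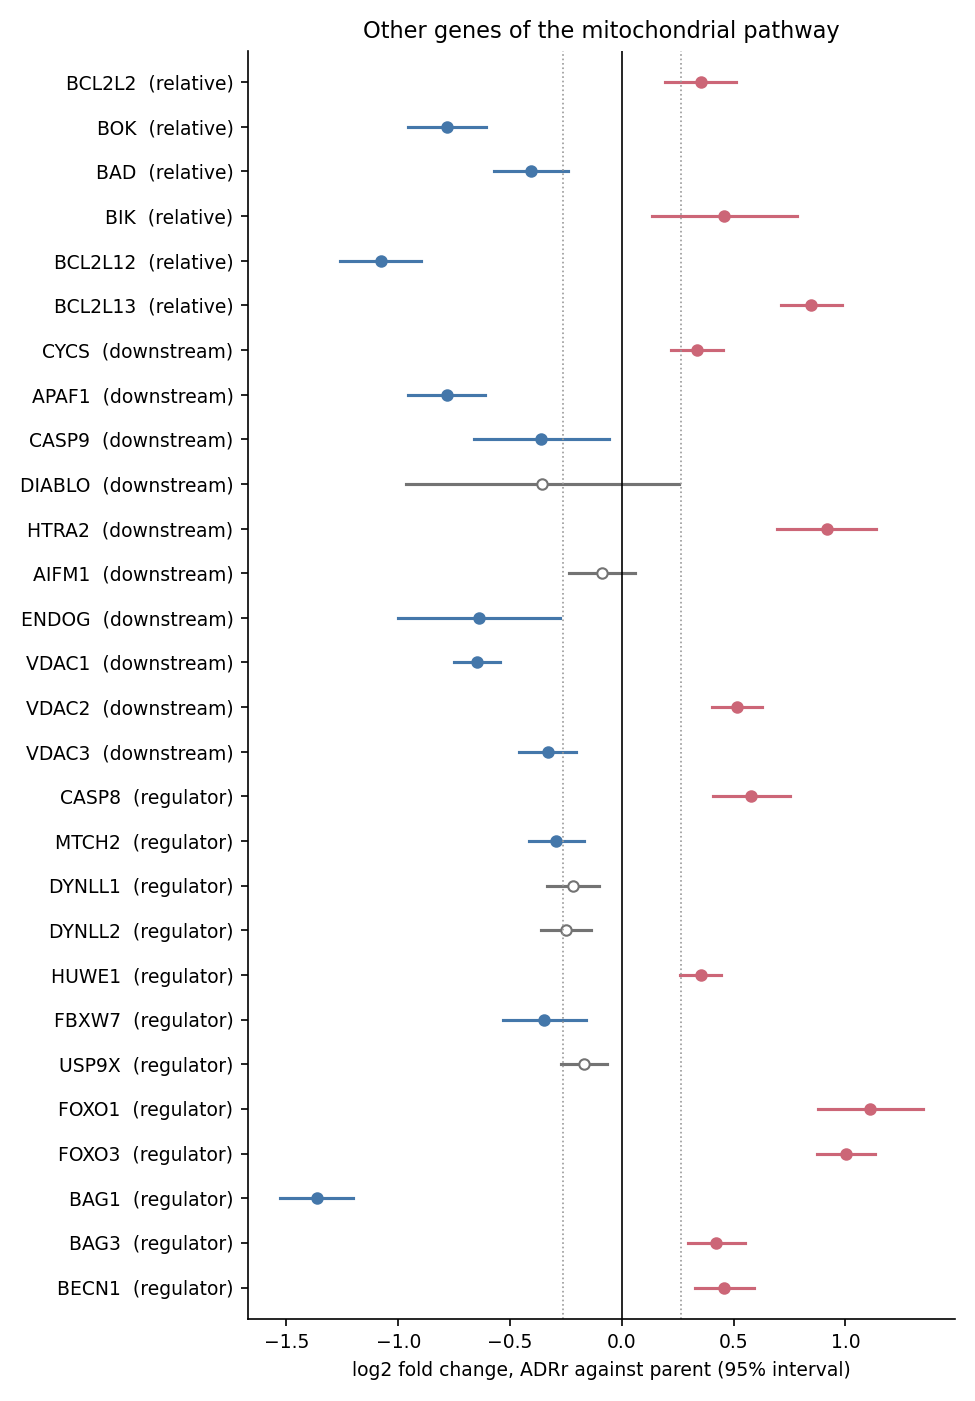
Log2 fold change of ADRr against parent cells for the tested relatives, downstream genes and regulators; bars are 95% confidence intervals, red and blue mark genes called higher and lower, open grey circles genes not called, and dotted lines a fold change of 1.2. Each list holds genes on both sides of 0, from BAG1 at -1.37 to FOXO1 at 1.11.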

How the data were processed

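RNA from 3 parent and 3 ADRr libraries was measured. According to the study's methods, polyadenylated RNA was made into CORALL libraries and sequenced in pairs on a NovaSeq. The labels name a TruSeq cluster kit, which those methods also name, and give a different amount of input RNA. The submitters' processing notes name fastp, HISAT2 2.0.5, featureCounts 1.5.0-p3, DESeq2 1.20.0 and GRCh38. The authors deposited raw counts for each gene, which are whole numbers, and a second table of FPKM derived from them and from gene length. All 58735 gene identifiers and lengths were those of GENCODE 29.

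The counts were fitted with edgeR 4.0.16 under R 4.3.3 (TMM factors 0.987 to 1.01, filterByExpr, quasi-likelihood test, Benjamini-Hochberg adjustment over 15242 genes). CPM were scaled with the TMM factors. A call required a 1.2-fold difference and an adjusted p no higher than 0.05. Ratios of FPKM were compared by two-sided exact permutation tests. Alternatives used DESeq2 1.42.0, limma 3.58.1 on FPKM, other scalings, filters and thresholds, a replicate block, and the omission of each library. All members were named, with the 2 largest called increases and decreases of each other list. HUWE1, USP9X, VDAC3, BAD and BCL2L2 were added beside them. For DIABLO, which has a second entry of the same symbol, only the first was used. A further marker gene of another cell type, beside the 6 summed, is not reported here. Members and lists were chosen with earlier results of these data known.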

Additional observations from a re-analysis of the deposited data

How the results depend on the processing

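Across the 18 alternatives to the edgeR fit, PMAIP1 and BAG1 were called in the same direction each time. MCL1 (0.45), BAK1 (0.42) and BCL2L11 (0.64) missed the call only where an absolute log2 fold change of 1.2 was required, which left 1 member called higher. At that threshold, the counts higher and lower were 0 and 0 for relatives, 0 and 0 for downstream genes, and 0 and 1 for regulators. With edgeR's glmTreat against a fold change of 1.2, 1 relative was called higher, 3 downstream genes lower and 1 regulator lower. With the adjusted p alone, BID (-0.21) made 1 member lower, and 6 regulators were lower. Leaving out each library, 0 to 1 members were called lower, and BID ranged from -0.28 to -0.15.

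BCL2 lost its call with DESeq2 (0.31), with no filter (0.31, adjusted p = 0.059), with limma on log2(FPKM + 1) with or without a filter (0.15 in both), on log2(FPKM + 0.1) (0.29), at the log2 threshold of 1.2 and with glmTreat (0.31 in both), and leaving out a library (range 0.21 to 0.35). The sign of BCL2L1, never called, turned positive with DESeq2's size factors (0.0020), library size alone (0.026), DESeq2 (7.3e-04), at least 10 counts in every library (0.0083) and limma (0.0038 in 3 settings), and leaving out a library gave -0.021 to 0.014. For BAX that range was -0.0054 to 0.089, and for the BAK1 to MCL1 log2 ratio -0.11 to 0.037. The cause of these differences was not tested.

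With 25 or 100 neighbours, the medians were 0.55 and 0.64 for PMAIP1, 0.65 and 0.67 for BCL2, and -0.16 and -0.28 for BMF. They were -0.25 for BCL2L1, -0.56 for BAK1 and 0.074 for BCL2L11 with 25, and -0.063 for MCL1 and -0.20 for BAX with 100.

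Replicate numbers did not pair the libraries: deviations from the group means of same-numbered libraries correlated at 0.01, -0.02 and -0.05. A fit with the number as a block changed no call of a member or of a gene named for the size of its change (BCL2 0.31, BID -0.21). It called 5 members higher and 0 lower. At these depths BCL2A1 could not be tested, and BMF and BCL2 rest on 82 to 229 counts per library. Genes rather than transcripts were counted.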
